A study of Rattus norvegicus with 2 samples.

Results

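The cytosolic ribosomal protein genes were examined in rat heart against cultured rat cells. They were taken as the genes whose platform symbol is Rpl or Rps followed by a digit, Rplp0 to Rplp2 or Rpsa, with the S6 kinase genes (Rps6k) left out. This gave 78 genes of the 15613 measured, read by 120 of 40012 probes. Heart RNA, from untreated rat heart that had not been cultured, was labelled with Cy3 and hybridised on 2 two-colour Agilent arrays, 1 for each of the samples Rat heart-1 and Rat heart-2. The other channel of both arrays held mix1, labelled with Cy5, a mixture of cultured rat bone marrow cells and cultured rat primary ear fibroblasts. The labels name no strain or age, and do not say whether the heart samples are from separate animals. Any p-value thus rests on the spread between 2 samples, possibly technical, and the spread of mix1, a single control, does not enter it.

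Ribosomal proteins clothe the ribosomal RNAs of the large and the small subunit. They are needed in matched amounts, since a ribosome is assembled from the full set. Their messages are among the most abundant in growing cells. Most begin with a terminal oligopyrimidine tract, a C followed by a run of pyrimidines, through which the growth-sensing kinase mTOR and the binding protein Larp1 control their translation. A few subunits have a paralog with a restricted tissue range, and in striated muscle Rpl3l, a paralog of Rpl3, is the best known of these.

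Each value is the log2 ratio of heart over mix1, so that a positive value means a larger share of the heart RNA. The deposited direction is likely and not stated. It was read from 17 cardiac sarcomere genes, all of which were positive on both arrays (median 5.78), and that sign is no finding. How the channels were normalised against each other is not given in the sources used here. Each value is therefore read as relative to the rest of the RNA, and not as an amount per cell. In such bulk samples fewer cells of a type and less RNA per cell cannot be told apart. All 12 fibroblast matrix markers (median -5.20) and all 10 cell cycle markers (median -3.84) were lower in heart, and all 7 endothelial markers (median 3.75) and all 3 erythroid markers (median 3.84) were higher. Of 7 lymphocyte markers 5 were higher (median 1.36), and of 7 macrophage markers 4 were lower and 2 higher (median -0.48). Lung and airway epithelium markers set the heart samples apart, with a median of 0.06 over 10 genes on array 1 and 3.61 on array 2. The surfactant gene Sftpc, for example, was at 0.84 on array 1 and 6.68 on array 2. The part of these cell types in the results on ribosomal proteins was not tested. Spot intensities were not used here, so the signal behind each ratio is unknown, and the number of arrays limits the precision. There was no dye swap, so that a dye bias of a probe would stay in its ratio.

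Most ribosomal protein genes were modestly lower in heart than in mix1, and a minority were higher. Of the 78 genes, 47 were lower (60.3%, against 41.5% of all 15613 genes) and 24 were higher (30.8%, against 31.4% of all genes) in limma's moderated test at an adjusted p of 0.05. The other 7 did not pass, so that 71 (91.0%, against 72.9% of all genes) differed in either direction. The median ratio was -0.47, a 1.39-fold difference, beside a median of -0.09 over all genes. All 78 genes had the same sign on both arrays, 51 below 0 (65.4%, against 51.0% of all genes) and 27 above. The sizes were small: 19 genes were lower by at least 2-fold (24.4%, against 19.5% of all genes) and 6 higher by at least 2-fold (7.69%, against 16.9% of all genes). Of the 71 genes that passed, 46 differed by less than 2-fold, the smallest by 0.16 on the log2 scale, and a dye effect of that size cannot be told apart from a difference between the RNAs. Centring, as used below, set each array's median over all 40012 probes to 0. It left 39 genes (50%, against 35.5% of all genes) lower and 15 (19.2%, against 30.3% of all genes) higher. The fit after centring had infinite prior degrees of freedom and gave every gene the same variance, in place of 1.24 prior degrees of freedom, so a small ratio could lose its call without shrinking. At an adjusted p of 0.01, 41 were lower and 13 higher, and the share of all genes at that threshold was not computed.

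**Figure D1:**
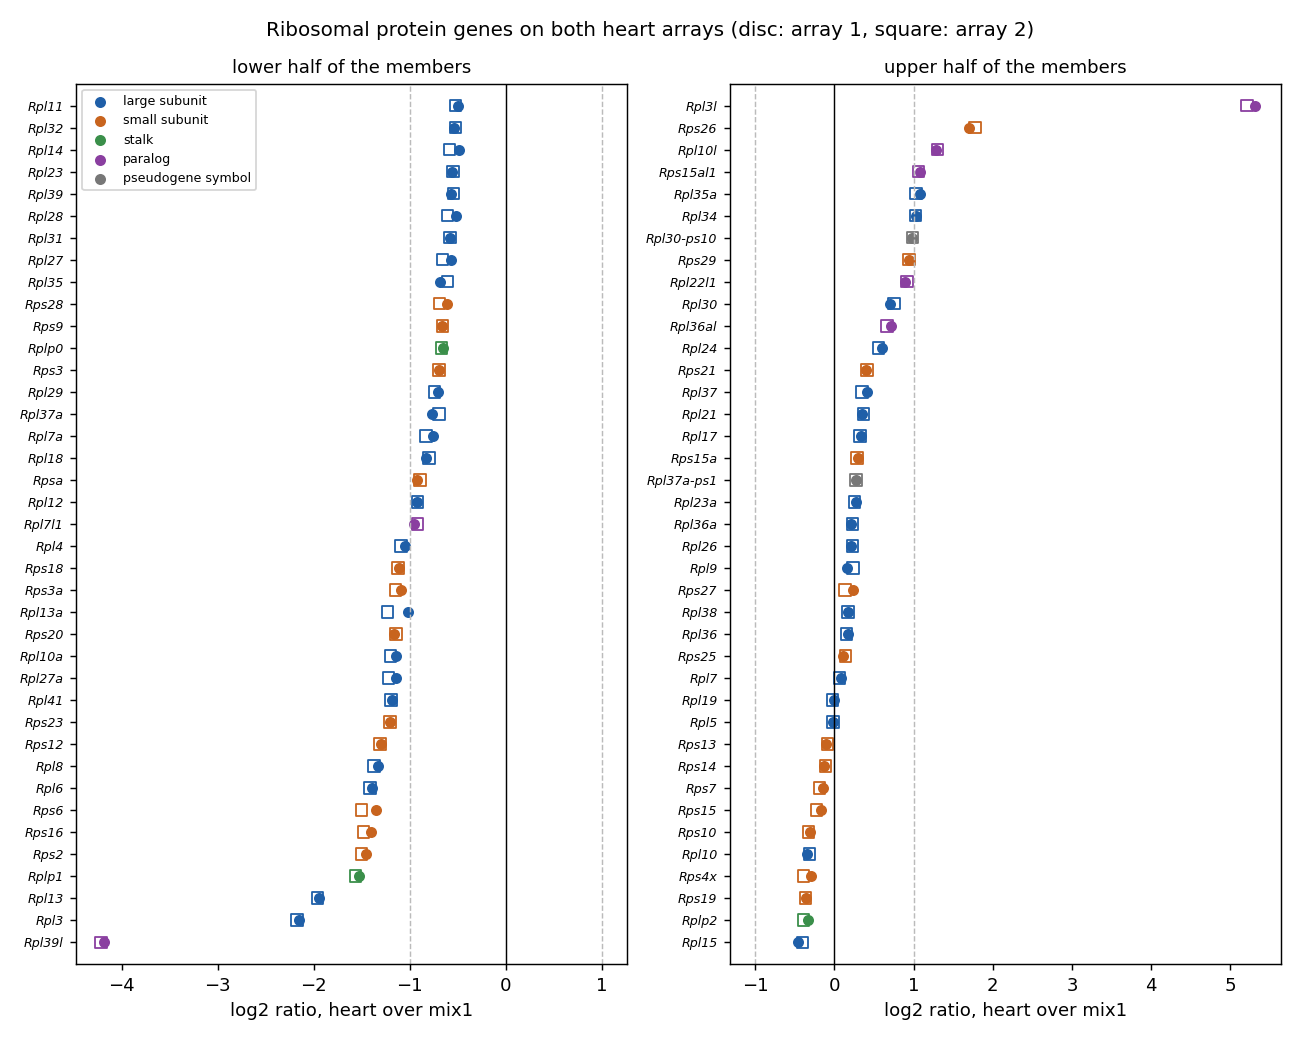
Log2 ratio of heart over mix1 (x axis) for each of the 78 ribosomal protein genes (y axis, ordered by mean) on array 1 (disc) and array 2 (open square), coloured by group, with dashed lines at 2-fold. The genes run from Rpl39l at -4.20 to Rpl3l at 5.26, both far from the rest, and the arrays lie close together for every gene.

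The arrays agreed closely on these genes in the values as deposited. The median absolute difference between the arrays was 0.03 over the 78 genes and 0.08 over all genes, and 0 of the 78 differed by at least 2-fold between the arrays, against 2.16% of all genes. The largest difference was that of Rpl13a, at -1.02 on array 1 and -1.23 on array 2. As deposited, the median difference, array 2 minus array 1, was -0.004 over all 15613 genes. Centring used the median of all probes, including the 19595 without a symbol, and moved the arrays apart for these genes. After centring, the SD between arrays of the members' median was 0.12, in place of 0.01.

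The widest contrast lay between Rpl3, a large subunit protein close to the peptidyl transferase centre, and its muscle paralog Rpl3l. Rpl3l was at 5.32 on array 1 and 5.21 on array 2, a mean of 5.26 ± 0.08 (SD, n = 2) and 38.4-fold higher in heart (limma, adjusted p 0.0012). Rpl3 was at -2.16 and -2.17, a mean of -2.17 ± 0.01 and 4.49-fold lower in heart (limma, adjusted p 0.00124). These were the highest and, next to Rpl39l, the lowest means among the 78 genes. The ratio of Rpl3l exceeded that of Rpl3 by 7.47 on array 1 and 7.38 on array 2, so the balance of the paralogs differed 172-fold between heart and mix1. Each gene was read by 1 probe. The paralogs' levels within heart cannot be compared, because a ratio does not give a level.

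The RefSeq sequence around the annotated start of these genes is shown because the start carries the pyrimidine tract of ribosomal protein messages and because Rpl3 and Rpl3l differ there. Each line runs from 30 bases before the start to the first 20 bases of the transcript, and capitals mark runs of at least 5 pyrimidines that reach within 10 bases of the start. The first 5 genes were lower in heart, the next 3 higher, and the last 2 are the paralogs with the lowest and the highest ratio.
Rpl3: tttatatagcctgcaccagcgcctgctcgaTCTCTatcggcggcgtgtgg
Rpl13: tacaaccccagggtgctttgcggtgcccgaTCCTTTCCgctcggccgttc
Rplp1: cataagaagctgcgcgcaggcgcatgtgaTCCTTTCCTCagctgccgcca
Rps2: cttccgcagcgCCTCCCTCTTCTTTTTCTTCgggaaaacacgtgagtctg
Rpl39: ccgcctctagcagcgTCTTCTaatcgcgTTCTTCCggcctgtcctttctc
Rpl34: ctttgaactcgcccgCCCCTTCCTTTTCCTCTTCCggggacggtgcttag
Rpl35a: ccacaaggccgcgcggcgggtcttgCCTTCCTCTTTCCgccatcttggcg
Rps26: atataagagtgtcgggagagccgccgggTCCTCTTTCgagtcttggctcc
Rpl39l: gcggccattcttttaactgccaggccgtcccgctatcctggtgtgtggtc
Rpl3l: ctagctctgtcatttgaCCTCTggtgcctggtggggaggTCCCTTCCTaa

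On GRCr8 these stretches are Rpl3 at chr7:113507971-113508020 (minus strand), Rpl13 at chr19:68062484-68062533 (plus), Rplp1 at chr8:71290853-71290902 (minus), Rps2 at chr10:14251818-14251867 (plus) and Rpl39 at chrX:121195877-121195926 (minus). The others are Rpl34 at chr2:221962264-221962313 (minus), Rpl35a at chr11:81235002-81235051 (minus), Rps26 at chr7:1643385-1643434 (minus), Rpl39l at chr10:5966602-5966651 (minus) and Rpl3l at chr10:14258416-14258465 (plus). The stretch labelled Rpl39l is that of Rpl39l1, the current symbol of the gene its probe matches. In the 8 core genes shown a tract covers or adjoins the start. Other core genes, such as Rps16 (lower in heart) and Rpl26 (higher), hold no run of at least 5 pyrimidines within 10 bases of the start. In Rpl3l the runs lie on either side of a purine-rich start, and in Rpl39l no run of that length reaches within 10 bases of the start.

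Promoter windows of 250 bases before and 50 after the start were matched for 64 of the 78 genes. A C at the start followed by 4 pyrimidines was present in 22 of the 64 (34.4%), against 2.63% of all 33469 windows. Those windows were not restricted to the 15613 measured genes, so they are a broader set than the members. A run of at least 5 pyrimidines within 10 bases of the start was present in 54 (84.4%), against 43.4% of all windows. The median ratio was -0.43 for the 22 genes that hold the exact tract, 14 of them lower in heart. It was -0.65 for the 42 that do not, 28 of them lower. These 42 include Rpl3, Rpl13 and Rps2, since the exact tract must begin at the annotated start base. For the looser run the median was -0.56 for the 54 genes with it and -0.66 for the 10 without it. A link between the tract and the ratios was not tested. Among motifs searched on both strands of the 250 bases before the start, CGGAAG, the core of sites bound by ETS factors, was found in 33 of the 64 (51.6%), against 13.9% of all windows. Of those 33 genes, which include the paralog Rpl39l, 26 were lower in heart, with a median of -0.64. Of the 31 without it 16 were lower, with a median of -0.34. A link between this motif and the ratios was not tested. For neither the tract nor the motif were such counts made over all measured genes. TATAA was found in 23.4% of the 64 and in 24.0% of all windows, CACGTG in 4.69% and 5.59%, and TGACCT in 14.1% and 14.1%. No motif contains another. A match is a description of letters and not a bound site.

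The 200 bases before the start of Rpl3 (chr7:113507991-113508190, minus strand) and Rpl3l (chr10:14258246-14258445, plus strand) show the pair's different upstream sequence, with capitals at matches to the 4 motifs. Rpl3 holds TATAA on the opposite strand, in a match that begins 29 bases before the start, and Rpl3l holds TGACCT, a short element known to bind nuclear receptors, 16 bases before the start.
Rpl3: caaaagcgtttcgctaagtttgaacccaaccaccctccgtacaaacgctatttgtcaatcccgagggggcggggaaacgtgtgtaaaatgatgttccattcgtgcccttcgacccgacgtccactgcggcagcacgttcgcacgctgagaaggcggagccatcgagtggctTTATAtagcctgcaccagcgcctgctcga
Rpl3l: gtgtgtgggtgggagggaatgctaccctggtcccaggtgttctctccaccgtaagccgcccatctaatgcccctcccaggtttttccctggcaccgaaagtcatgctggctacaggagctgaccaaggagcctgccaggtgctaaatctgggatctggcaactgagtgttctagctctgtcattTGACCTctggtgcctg

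Of the 7 measured paralogs, 5 were higher in heart (71.4%, against 31.4% of all genes) and 2 lower (28.6%, against 41.5%), all past limma's test. Rpl39l, a paralog of Rpl39 known from male germ cells and tumour lines, stood at the opposite end from Rpl3l. It was at -4.19 on array 1 and -4.22 on array 2, 18.4-fold lower in heart (limma, adjusted p 0.0012), while Rpl39 was at -0.57 and -0.54. The ratio of Rpl39l was below that of Rpl39 by 3.61 on array 1 and 3.67 on array 2. The probe now matches the gene Rpl39l1, so what is known of Rpl39l may not apply to its ratio.

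Rpl10l, an autosomal copy of the X-linked Rpl10 known from the testis, was at 1.29 and 1.31, against -0.34 and -0.31 for Rpl10, which did not pass after centring. Rpl22l1, a paralog of Rpl22, was at 0.90 and 0.92, and Rpl22 itself was not analysed here. These paralogs were higher in heart, by 2.46-fold for Rpl10l. Rpl36al, now named Rpl36al1, was at 0.72 and 0.66, beside 0.21 and 0.23 for Rpl36a. Rps15al1 was at 1.08 and 1.06, beside 0.29 and 0.29 for Rps15a, and this pair was added after its values were seen. Rpl7l1, which takes part in the assembly of the large subunit in the nucleolus, was lower in heart, at -0.96 and -0.92. Rpl7 did not pass (0.08 and 0.06) unless read by its probe of smallest difference between arrays (0.36). Its other probe was at -0.21 as a mean over the arrays, and was called lower when all probes were tested singly with limma. In each of the 6 pairs with both genes measured, the difference between paralog and parent was larger than its change between the arrays. That change leaves out the spread between probes of a gene, whose median range was 0.41 among members with several probes. The rat genome holds many processed copies of ribosomal protein genes that can share a probe, so the values of close copies are uncertain.

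**Figure D2:**
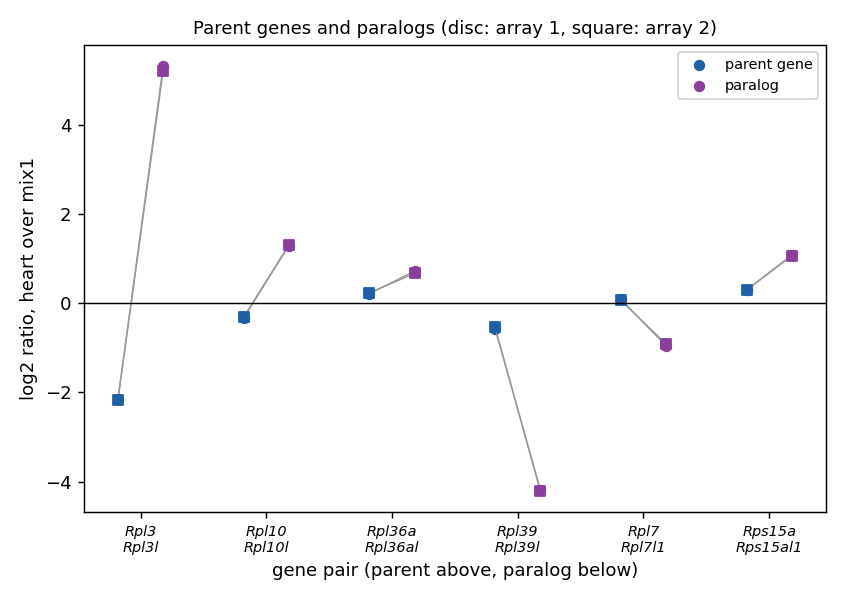
Log2 ratio of heart over mix1 (y axis) of 6 parent genes and their paralogs (x axis) on array 1 (disc) and array 2 (square), joined within each array. The Rpl3 pair spans from -2.17 to 5.26 and the Rpl39 pair from -0.56 to -4.20, while the Rpl36a pair differs by 0.47.

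The 41 core proteins of the large subunit had a median of -0.54. Of these genes 25 were lower in heart (61.0%, against 41.5% of all genes), 13 higher (31.7%, against 31.4%) and 3 did not pass. The share of higher genes was thus near that of all genes. Besides Rpl3, the lowest were Rpl13 (-1.95 on array 1 and -1.96 on array 2), Rpl6 (-1.39 and -1.41) and Rpl8 (-1.33 and -1.37). Rpl13 was 3.87-fold lower in heart, and its probes gave -2.53 and -1.38 as means over the arrays. The gene of Rpl41, a very short basic peptide, was lower too, at -1.19 and -1.20. Rpl11, which with Rpl5 binds the smallest ribosomal RNA of the large subunit and restrains the p53 ligase Mdm2, was lower at -0.50 and -0.52. Rpl5 did not pass (-0.02 and -0.02), and its 3 probes lay between -0.24 and 0.22. The highest passed when it stood for the gene. When all probes were tested singly with limma, the highest was called higher and the lowest was called lower.

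The 13 large subunit genes that were higher in heart were mostly under 2-fold. Rpl35a (1.08 and 1.03) and Rpl34 (1.03 and 1.03) were the only ones of the 41 past 2-fold in that direction, and the probes of Rpl35a gave 1.36 and 0.75. Rpl30 was at 0.73 and Rpl24 at 0.58 as means over the arrays. Lower still were Rpl37 (0.38), Rpl21 (0.36), Rpl17 (0.33), Rpl23a (0.26), Rpl36a (0.22), Rpl26 (0.22), Rpl9 (0.20), Rpl38 (0.18) and Rpl36 (0.16). Of these 9 genes, 7 no longer passed when the arrays were centred: Rpl17, Rpl23a, Rpl26, Rpl36, Rpl36a, Rpl38 and Rpl9. Their ratios were larger after centring, such as 0.39 for Rpl17 and 0.23 for Rpl36. Rpl21 was not past the test for its probe of smallest difference between arrays (0.10).

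The 25 core proteins of the small subunit had a median of -0.36. Of these, 17 were lower in heart (68%, against 41.5% of all genes), 4 higher (16%, against 31.4%) and 4 did not pass. Rps2, which lies near the path by which messages enter the ribosome, was lower at -1.46 and -1.50, and all 4 of its probes lay below -1 on both arrays. Rps16 was at -1.40 and -1.48. Rps6, the substrate of the S6 kinases, was at -1.35 and -1.50, 2.69-fold lower in heart (limma, adjusted p 0.00323). Rps19, a gene often mutated in Diamond-Blackfan anaemia, was lower by less, at -0.36 and -0.36, and did not pass after centring. Rpsa, also known as a laminin receptor, was at -0.92 and -0.89.

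The higher genes of the small subunit were Rps26, Rps29, Rps21 and Rps15a. Rps26, which lies at the exit of the message channel and leaves some ribosomes under stress in yeast, had the highest ratio of any core gene. It was at 1.70 on array 1 and 1.78 on array 2, 3.34-fold higher in heart (limma, adjusted p 0.00161), read by 1 probe. Rps29 was at 0.95 and 0.94, Rps21 at 0.40 and 0.41, and Rps15a at 0.29 and 0.29. Rps15a did not pass after centring, although its ratio was then 0.35. Rps26 was thus high on the same arrays on which most small subunit genes were low.

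All 3 stalk proteins, which recruit the elongation factors to the large subunit, were lower in heart. Rplp1 was at -1.53 and -1.57, 2.92-fold lower. Rplp0, often used as a reference gene for normalisation, was at -0.66 and -0.67, and Rplp2 at -0.34 and -0.39. The stalk genes thus kept 1 direction, and Rplp2 no longer passed after centring. They differed in size by more than the spread between arrays. Each was read by 1 probe, however, and that spread leaves out the larger one between probes of a gene. The 2 genes with pseudogene symbols were both higher in heart. Rpl30-ps10 was at 0.98 and 0.99, and Rpl37a-ps1 at 0.27 and 0.28, with probes at -0.27 and 0.82. Rpl37a-ps1 did not pass after centring (0.34), and was called lower (-0.27) when read by its probe of smallest difference between arrays.

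Probes of the same gene differed far more than arrays did. For the 32 genes with several probes, the SD between probes had a median of 0.25 and the SD between arrays a median of 0.02, and the probes' SD was the larger in all 32. The median range between the lowest and highest probe was 0.41, beside 0.75 over the 3768 genes of the whole table with several probes. In 7 genes the probes lay on both sides of 0, and 3 of these passed limma's test: Rpl37, Rpl37a-ps1 and Rps7. Rps7 was at -0.15 and -0.19, but at 0.22 for its probe of smallest difference between arrays. The adjusted p-values do not hold this spread. In 0 genes did probes point at least 2-fold in opposite directions.

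Rpl37 showed the widest disagreement. A probe whose accession now belongs to the copy Rpl37l1 gave -0.41 on array 1 and -0.51 on array 2. The other probe, listed under an accession with no match and averaged with the first through their shared platform symbol, gave 1.23 and 1.20. The mean of 0.38 lies near neither. Rps25 was likewise split, at 0.64 and 0.69 for one probe and -0.41 and -0.40 for the other, and did not pass as a mean of both. The 7 probes of Rpl21 ran from 0.04 to 0.67 as means over the arrays, all on the same side of 0.

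**Figure D3:**
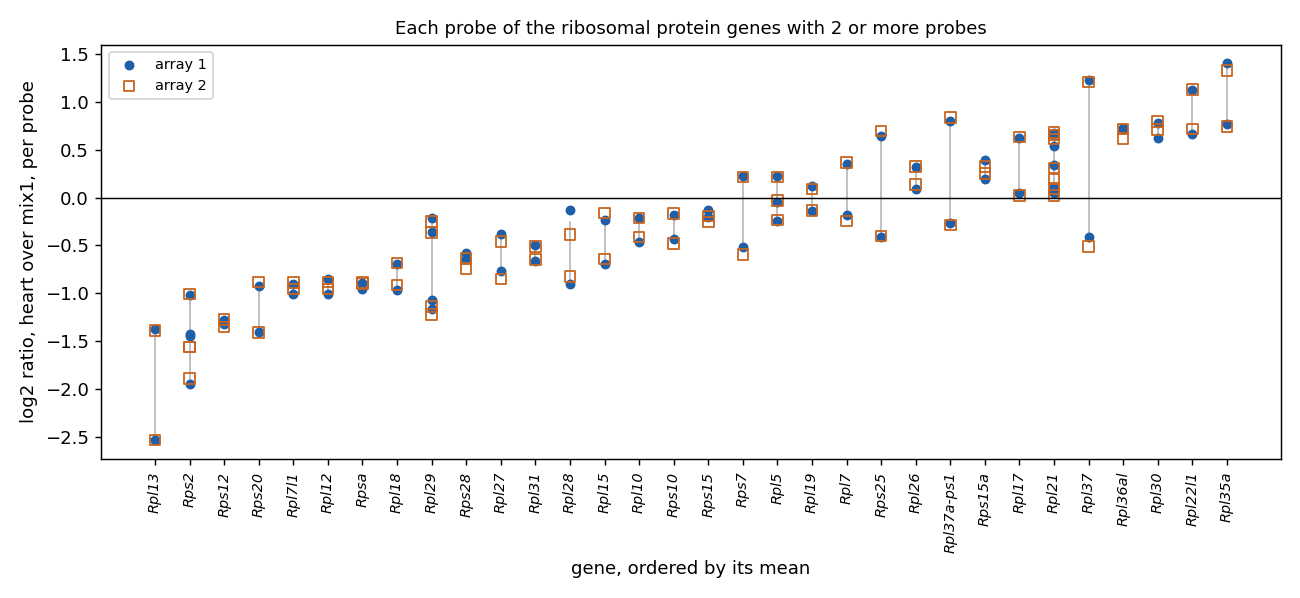
Log2 ratio of heart over mix1 (y axis) of each probe of the 32 ribosomal protein genes with several probes (x axis, ordered by mean) on array 1 (disc) and array 2 (open square), with a grey line from the lowest to the highest probe. Discs and squares of a probe nearly coincide, while the probes of a gene lie up to 1.67 apart, as for Rpl37.

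Ribosomal proteins without an Rp symbol were also lower in heart. Rack1, a signalling scaffold on the small subunit, was at -1.23 and -1.23, and Fau, which encodes a small subunit protein fused to a ubiquitin-like domain, at -0.31 and -0.29. Both passed limma's test.

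Genes for making ribosomes were mostly lower in heart. Of 42 measured genes of ribosome biogenesis, 33 were lower (78.6%, against 41.5% of all genes) and 5 higher (median -0.72). The lowest were Bop1 (-1.70 ± 0.04), which processes the large subunit's RNA, and Nop14 (-1.60 ± 0.07), a factor of the small subunit. The highest were Nmd3 (0.56 ± 0.05), which exports the large subunit, and Nop10 (0.55 ± 0.01), of the RNA pseudouridylation complex. Of 20 genes of RNA polymerase I and of the transcription of the smallest ribosomal RNA, 11 were lower (55%, against 41.5% of all genes) and 4 higher (median -0.50). Polr1g was at -2.31 ± 0.04 and the polymerase I initiation factor Rrn3 at -1.42 ± 0.11. Among the higher were Polr2l (1.58 ± 0.01) and Polr2f (1.30 ± 0.03), subunits shared by all 3 nuclear polymerases. Polr1a (0.84 ± 0.04), a subunit of polymerase I, and Polr2e (0.27 ± 0.02), another shared subunit, were higher too.

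Of 17 other messages known to carry a terminal oligopyrimidine tract, 13 were lower (76.5%, against 41.5% of all genes) and 2 higher, with a median of -0.39. Fau, Rack1 and Npm1, all lower, stand in this list and in those before it. The intermediate filament gene Vim (-4.59), a fibroblast gene as well, and the poly(A)-binding protein gene Pabpc1 (-3.38) were the lowest, and the elongation factor gene Eef1a1 was at -2.22 on both arrays. Tpt1 (0.61) and Eif4b (0.33) were higher in heart. Of 15 measured regulators of these messages, 8 were lower (53.3%, against 41.5% of all genes) and 6 higher (40%, against 31.4%), with a median of -0.38. Myc, a transcription factor that drives ribosome production, was lowest at -2.37 and -2.38, followed by Larp1 at -1.55 and -1.61. Mtor (0.72) and Eif4e (0.63), the cap-binding protein, were the highest.

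Mitochondrial ribosomal proteins, which build the separate ribosome that translates the mitochondrial genome, had ratios on the other side of 0. Of 68 measured, 63 were higher in heart (92.6%, against 31.4% of all genes) and 2 lower, with a median of 1.40. By at least 2-fold, 48 were higher (70.6%, against 16.9% of all genes). The highest were Mrpl58 (2.70) and Mrpl40 (2.65), and the lower ones Mrpl52 (-1.02) and Mrpl10 (-0.43). The cytosolic core, with 17 of 69 higher (24.6%) and 45 lower (65.2%) and a median of -0.54, thus had the opposite sign in its median. The quartiles of the core genes lay at -1.07 and 0.16. The difference between these groups as a whole was not tested.

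**Figure D4:**
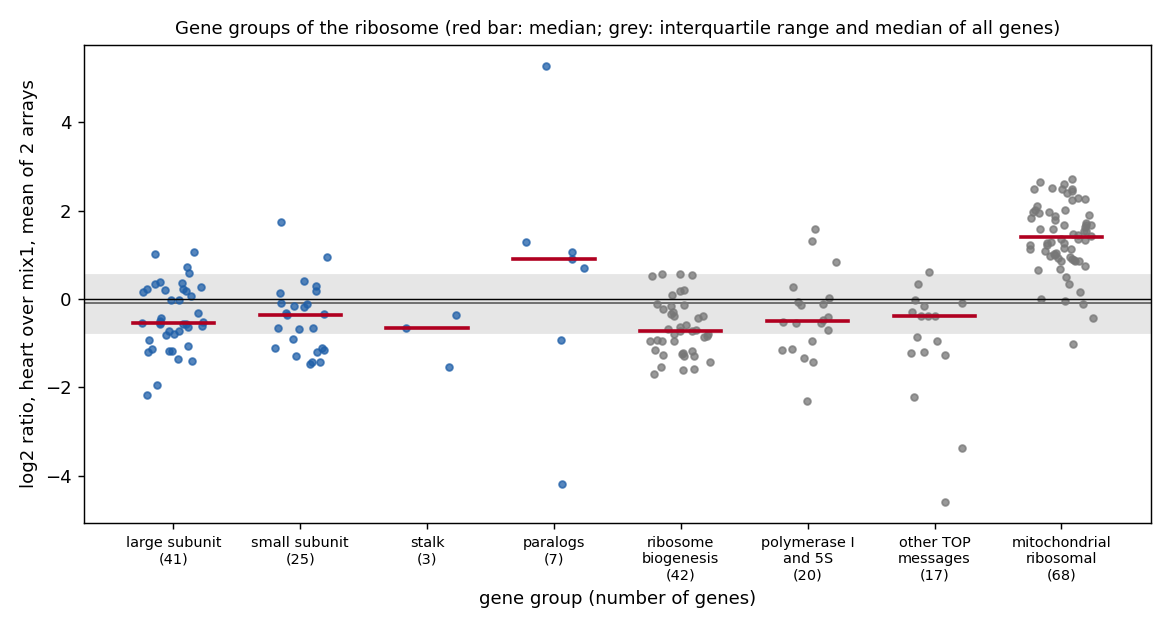
Mean log2 ratio of heart over mix1 (y axis) of each gene (point) in 8 gene groups (x axis), with the group median as a red bar and the median and interquartile range of all 15613 genes in grey. Medians of the large subunit (-0.54), small subunit (-0.36) and biogenesis genes (-0.72) lie below that of all genes, and the mitochondrial ribosomal proteins (1.40) lie above it.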

How the data were processed

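The deposited table held 1 value per probe and array, used as a log2 ratio of the 2 channels. Agilent Feature Extraction was used, per the submitters' processing notes, with version, background correction and dye normalisation not given in the sources used here. Base 2 was inferred from the range, from -11.10 to 10.42, which read as log10 would be beyond a scanner's range, and natural logs were tried. Medians were 0.01 on array 1 and -0.14 on array 2, so neither column was centred on its median.

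Of 40012 probes, 20417 had 1 platform symbol, 0 several and 19595 none. Accessions without versions matched the GRCr8 gene table for 16978 and gave current symbols. Members were named in the text by platform symbol and other genes by current symbol. Probes of a gene were averaged, giving 15613 genes. The ratio was tested against 0 with limma 3.58.1 in R 4.3.3 (lmFit with an intercept, then eBayes; 1 residual degree of freedom, prior degrees of freedom 1.24), two-sided, with Benjamini-Hochberg adjustment over all genes at 0.05. The code was tested on simulated data. Sequences came from RefSeq (GRCr8). No coordinates of probes are given because no build is named for the table.

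The members, the gene lists and the rule for named genes were chosen with earlier results of these data known. That rule took Rpl3l, Rpl3, every paralog and parent, the 8 highest and 8 lowest means, every member higher in heart, members split between probes, and the stalk genes, Rpsa, Rps6, Rps19, Rpl5 and Rpl11. From other lists it took up to 2 genes at each end. Eef1a1, Polr1a, Polr2e, Rpl8, Rpl41, Rps7, Rps12, Rps25 and Rpl13a were added after their values were seen. Alternatives were array centring, log base, the treatment of probes, names and membership, robust moderation, single-probe genes, a stricter threshold and leaving out each array. Protein sequences were not used here.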

Additional observations from a re-analysis of the deposited data

How the results depend on the processing

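The contrast of Rpl3l with Rpl3 and the excess of lower over higher members kept their direction under each alternative that gave them. Restriction to core subunits gives no value for the pair, and a single array no counts. Natural logs changed the scale: Rpl3l minus Rpl3 was 10.72, the medians were -0.68 (all members), -0.77 (large subunit) and -0.52 (small subunit), and 10 members were higher by at least 2-fold. After centring, the medians were -0.41, -0.47 and -0.30, and 15 members were higher. At an adjusted p of 0.01, 13 were higher, with no share of all genes to set beside it. Among genes with a single probe, which are fewer, 13 members were higher and 29 lower, with medians of -0.55 (members) and -0.56 (large subunit). In that setting 8207 of all 11845 genes passed in either direction. Core subunits alone had a median of -0.54 and 3 genes higher by at least 2-fold, and membership by current symbol gave a median of -0.43. When a gene was read by its least variable probe alone, the medians were -0.46 (members) and -0.41 (small subunit), Rpl37a-ps1 turned to -0.27 and Rps7 to 0.22, and Rpl7 (0.36), Rpl5 (0.22) and Rps25 (-0.41) gained a call. A single array, which allows no test, gave medians from -0.47 to -0.46 (members), -0.54 to -0.51 (large subunit) and -0.39 to -0.36 (small subunit), and 7.38 to 7.47 for Rpl3l minus Rpl3. No paired analysis was possible because there was 1 group of samples. Signal over background is unknown, which limits every ratio.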

Other observations

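Rpl3l and Rps2, which stood far apart in ratio, are near neighbours in the RefSeq gene table of GRCr8. Their annotated starts lie 6598 bases apart on the same strand of chromosome 10, and the entries between them are Ndufb10, a subunit of mitochondrial complex I, and the small nucleolar RNA gene Snora64. From one side to the other, the ratios on arrays 1 and 2 were 0.89 and 0.98 for Rnf151, -1.46 and -1.50 for Rps2, 2.81 and 2.79 for Ndufb10, 5.32 and 5.21 for Rpl3l and -0.14 and -0.18 for Msrb1. The order of the ratios along the chromosome thus changed sign more than once within this stretch. The stretch was chosen after the values were seen.

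Rps12l4, a copy of Rps12 listed on the platform under an older symbol and so not among the 78 genes, was at 0.12 on array 1 and 0.19 on array 2, while Rps12 was at -1.30 and -1.31.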
